A study of Mus musculus with 18 samples.

Results

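The 8 structural myelin genes of Schwann cells, Mbp, Pmp22, Mag, Mal, Prx, Drp2, Cldn19 and Pmp2, were followed by name among the 28684 genes of the deposited count table, and each matched 1 gene of it. The study sequenced bulk RNA from the sciatic nerve and from the dorsal root ganglia (DRG) L3-L5 of C57BL/6 mice at 3 stages, which the labels name no disease, peak disease (PID21) and recovery (PID42). With 2 tissues there were 6 groups, each of 3 libraries, all of the C57BL/6 strain background, and the labels give no other allele, agent, sex or age for any group. The sources used here do not say how the disease was induced, what PID stands for or whether each library came from its own animal, so the spread that the p-values rest on is that between these libraries and may be technical.

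Schwann cells wrap the axons of peripheral nerves and, around the larger ones, compact their membrane into myelin. A DRG holds the cell bodies of sensory neurons with the satellite glia around them, and also the first stretch of their axons with its Schwann cells, whereas a sciatic nerve holds axons but few or no neuron bodies. Myelin genes are switched on together by the transcription factors SOX10 and EGR2, and Schwann cells that lose contact with a healthy axon are known to turn them down. A level in bulk RNA does not tell fewer cells of a type from less RNA per cell, and this holds for every value given here.

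The members encode different layers of the myelin sheath. Mbp (myelin basic protein, ENSMUSG00000041607, chromosome 18, 82475146 to 82585637, plus strand) and Pmp22 (a membrane glycoprotein whose duplication causes Charcot-Marie-Tooth neuropathy in humans, ENSMUSG00000018217, chromosome 11, 63128982 to 63159547, plus strand) belong to compact myelin. Pmp2 (a fatty acid-binding protein of myelin, ENSMUSG00000052468, chromosome 3, 10179851 to 10183929, minus strand) belongs there too. Mal (a proteolipid that sorts myelin proteins through lipid rafts, ENSMUSG00000027375, chromosome 2, 127633226 to 127656695, minus strand) acts in membrane traffic. Mag (the adhesion protein facing the axon, ENSMUSG00000036634, chromosome 7, 30899176 to 30914873, minus strand) and Cldn19 (the claudin of Schwann cell tight junctions, ENSMUSG00000066058, chromosome 4, 119255414 to 119262438, plus strand) lie in uncompacted membrane. Prx (periaxin, ENSMUSG00000053198, chromosome 7, 27499324 to 27520214, plus strand) and Drp2 (dystrophin-related protein 2, ENSMUSG00000000223, chromosome X, 134404551 to 134456573, plus strand) bind each other and join the outermost myelin layer to dystroglycan and the basal lamina. Coordinates are of build GRCm38 in the GENCODE vM21 annotation, the values count reads of each whole gene, and no member's exons overlapped those of another gene in the table.

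Library totals ran between 13686465 and 23435562 counts, and the members took 1.15 to 2.32% of all counts in nerve and 0.274 to 0.787% in DRG. Levels are in CPM (counts scaled to the size of the library) after TMM scaling within a tissue, and a change was called where the quasi-likelihood test of edgeR gave an adjusted p under 0.05 (Benjamini-Hochberg, over all genes tested). Reads of 3 genes that collect ribosomal RNA made up 0.594 to 2.14% of the peak nerve libraries and 0.590 to 4.67% of those at recovery, against 3.30, 20.8 and 8.93% of the no disease nerve libraries. Replicate 1 of the no disease nerves had the lowest level of each of the 8 members in its group, and a summed level of sensory neuron genes of 212 CPM against 61.0 and 43.6 CPM in replicates 2 and 3. Replicate 1 of the no disease DRG was likewise the lowest of its group for all 8.

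Because the members are known targets of SOX10 and EGR2, the 250 bases before their annotated starts were searched for the core letters of those factors' sites, ACAAAG or ACAATG for SOX and GTGGGNG for EGR, on both strands. In the windows shown no match overlaps another. The RefSeq promoter table of build GRCm38.p6 held 11 such windows for 5 members, Pmp22, Mag, Mal, Prx and Cldn19. Shown here, for the 3 members with a match in their most 5′ window, is that window 5′ to 3′ with the matched letters in capitals, at chr7:30914923-30915172 on the minus strand for Mag, chr7:27499074-27499323 on the plus strand for Prx and chr4:119255191-119255440 on the plus strand for Cldn19.
Mag: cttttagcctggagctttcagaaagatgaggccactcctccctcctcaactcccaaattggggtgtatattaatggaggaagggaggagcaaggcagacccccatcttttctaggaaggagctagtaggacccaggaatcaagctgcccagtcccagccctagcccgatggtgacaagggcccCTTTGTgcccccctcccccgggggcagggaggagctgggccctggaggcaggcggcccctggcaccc
Prx: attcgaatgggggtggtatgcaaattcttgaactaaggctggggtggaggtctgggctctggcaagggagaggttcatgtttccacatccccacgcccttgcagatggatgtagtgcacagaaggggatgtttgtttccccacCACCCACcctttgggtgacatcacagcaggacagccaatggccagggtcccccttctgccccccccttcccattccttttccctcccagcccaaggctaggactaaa
Cldn19: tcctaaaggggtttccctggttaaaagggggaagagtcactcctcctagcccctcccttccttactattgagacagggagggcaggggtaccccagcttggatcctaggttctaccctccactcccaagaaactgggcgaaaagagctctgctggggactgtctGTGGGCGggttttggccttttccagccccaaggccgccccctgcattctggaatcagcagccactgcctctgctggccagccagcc
The Mag match was ACAAAG read on the opposite strand and starts at position -67 from the start site. The Prx match was GTGGGNG on the opposite strand, at position -107, and that of Cldn19 was GTGGGCG, at position -86. Some windows of the same gene overlap, so the counts of windows are not counts of sites. The SOX letters stood in 2 of the 11 windows, which are overlapping windows of Mag that share 1 match, against 25.2% of all 32851 windows of this length in the table, and the EGR letters in 4 of the 11, against 28.1% of all. Of those 4, 1 is of Mag, 1 of Prx and 2 are overlapping windows of Cldn19 that share 1 match. The 4 windows of Pmp22 and the window of Mal held neither, which says only that these letters are not in these windows.

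In no disease tissue all 8 members were higher in nerve than in DRG, by 4.58-fold (Mag) to 8.27-fold (Pmp2), and every nerve library lay above every DRG library for each of them. Among all genes tested, 37.4% were called higher and 37.0% lower in nerve and 39.3% were higher there without overlap. The median log2 difference of the members was 2.46, against 0.04 over all genes. Of their transcription factors, the log2 difference was 2.00 ± 0.28 (SE) for Egr2 and 1.15 ± 0.22 for Sox10.

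Per kilobase of exon, Pmp22 was the most abundant member in no disease nerve at 3082 ± 1071 CPM per kb (SD, n = 3), followed by Mbp at 806 ± 151, Mal at 575 ± 120, Prx at 399 ± 119 and Drp2 at 293 ± 9.65 CPM per kb. Cldn19 at 65.6 ± 19.3, Pmp2 at 54.3 ± 9.15 and Mag at 26.7 ± 9.61 CPM per kb were the lowest. Lengths are those of all annotated exons of a gene together, 8469 bases for Mbp (16 transcripts) and 2354 for Pmp22 (5 transcripts). Before division by length, Pmp22 had 7255 ± 2522 CPM and Mbp 6824 ± 1277 CPM in no disease nerve. The gap between them per kb therefore rests largely on these lengths, and the counts do not tell which transcripts were present. The ranges over the libraries overlapped between Mbp and Mal, Mal and Prx, Prx and Drp2, and Cldn19 and Pmp2. These ranges do not set the genes against each other within a library, so they do not tell whether neighbours kept their order in each. At peak disease Pmp2 (137 ± 29.2 CPM per kb) stood beside Drp2 (121 ± 14.2 CPM per kb) in nerve, with overlapping libraries, and above Cldn19 (70.0 ± 18.1 CPM per kb). At recovery Pmp2 was again the lowest but Mag, at 52.7 ± 9.82 CPM per kb. In DRG the order was Pmp22, Mbp, Mal, Prx, Drp2, Cldn19, Pmp2 and Mag at all 3 stages, and Pmp2 and Mag overlapped at each.

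In the sciatic nerve, peak disease was accompanied by opposite changes of 2 members, while the other 6 did not pass the test. Drp2 fell to 0.431 times its no disease level and Pmp2 rose 2.61-fold. Over all genes tested in that comparison, 15.0% were called higher and 12.1% lower, and 22.6% and 18.8% were higher and lower without overlap, so 1 member in each direction is not a large share. Without TMM, on total counts only, 74.6% of the calls were higher, against 55.2% with it.

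Drp2, the scaffold that periaxin holds at the dystroglycan complex, had 2441, 2534 and 2686 CPM in the no disease nerves, 1226, 965 and 1112 CPM at peak and 1870, 2049.9 and 1619.6 CPM at recovery. The 3 stages formed 3 separate ranges, with all peak nerves lowest, all recovery nerves between and all no disease nerves highest. The log2 change was -1.21 ± 0.12 (SE) at peak against no disease, edgeR adjusted p = 0.000149, and it was called in 15 of 15 settings, between -1.30 and -1.06. Recovery was 0.75 ± 0.12 above peak on the log2 scale, adjusted p = 0.00357. Recovery against no disease had a log2 difference of -0.47 ± 0.12, which missed the threshold with an adjusted p of 0.126 in edgeR. The authors' deposited table gives a log2 ratio of -0.47 and a q of 0.00774 for Drp2 in that comparison.

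Pmp2, which carries fatty acids in myelin, had 61.3, 86.3 and 87.0 CPM in the no disease nerves, 200.5, 247 and 164 CPM at peak and 60.3, 89.1 and 82.0 CPM at recovery. Every peak nerve was above every nerve of the other stages, and the recovery and no disease nerves overlapped. The log2 change was 1.38 ± 0.20 at peak against no disease (edgeR adjusted p = 0.000977, between 1.22 and 1.55 over 15 settings, called in all 15) and -1.40 ± 0.20 at recovery against peak (edgeR adjusted p = 0.00177). Peak replicate 2 had the highest Pmp2 level of all 9 nerves and the lowest level of Mbp, Mal, Pmp22, Prx and Drp2.

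Prx, the partner of Drp2, had 1455, 2764 and 2622 CPM in the no disease nerves, 1609, 1044 and 1903 CPM at peak and 2604, 2587 and 2542 CPM at recovery. The peak nerves overlapped the no disease nerves through no disease replicate 1, and lay below all recovery nerves. The log2 difference was -0.59 ± 0.26 at peak against no disease (edgeR adjusted p = 0.117) and 0.76 ± 0.26 at recovery against peak (edgeR adjusted p = 0.0646). Without no disease replicate 1 the first of these was -0.83 with an adjusted p of 0.0184, and without peak replicate 3 the second was 0.96 with an adjusted p of 0.0330. The authors' deposited table gives q = 0.00270 for Prx at recovery over peak.

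**Figure D1:**
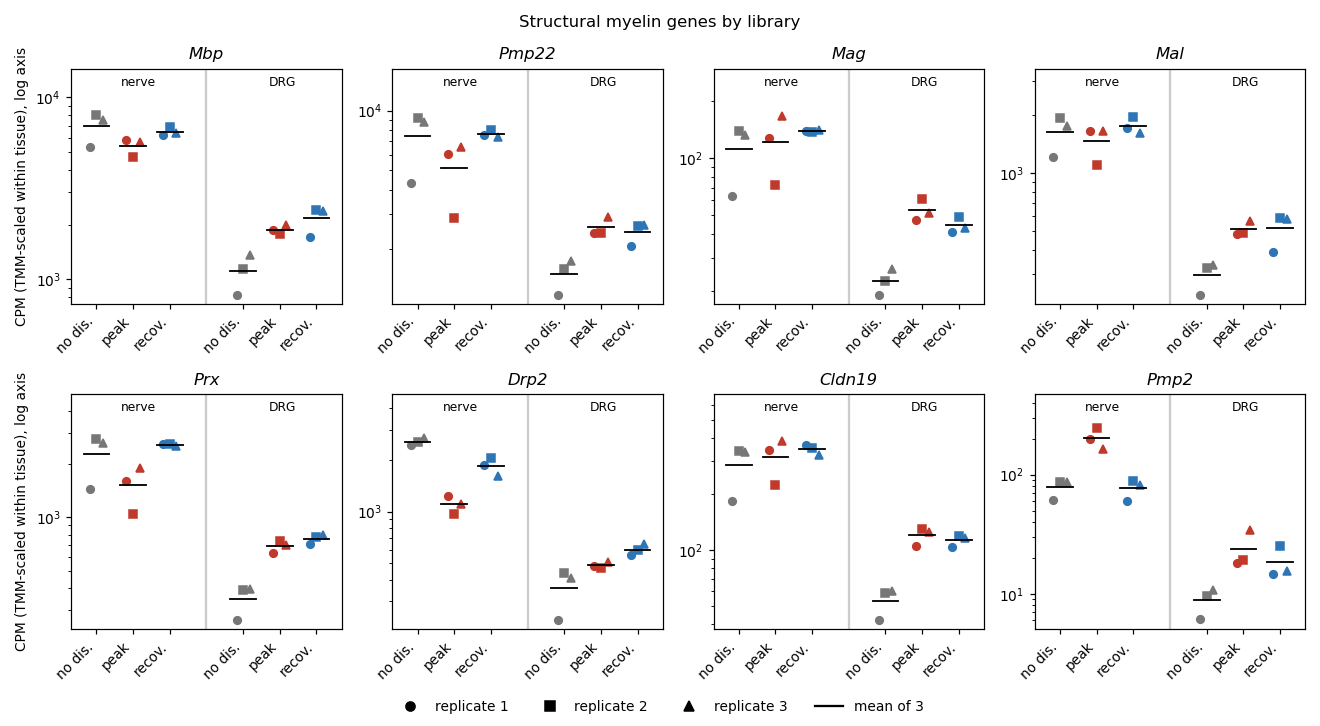
Level of each member (CPM, log axis) in every library of nerve and DRG, by stage. Circles, squares and triangles are replicates 1, 2 and 3, with no disease in grey, peak in red and recovery in blue. In nerve the peak libraries of Drp2 lie below and those of Pmp2 above the other stages, and in DRG the no disease libraries are the lowest for all 8 members.

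The compact myelin genes Mbp and Pmp22 were spread widely among the no disease nerves. Mbp had 5345, 8040.3 and 7549.8 CPM with no disease, 5832, 4714 and 5685 CPM in the peak nerves and 6203, 6916 and 6353 CPM at recovery. Pmp22 had 4327, 9184 and 8799 CPM with no disease, 6036, 2880.0 and 6559.8 CPM in the peak nerves and 7514, 7964 and 7334 CPM at recovery. For both, peak overlapped no disease and lay below every recovery nerve. The log2 difference at peak against no disease was -0.37 ± 0.16 for Mbp (edgeR adjusted p = 0.120) and -0.53 ± 0.33 for Pmp22 (edgeR adjusted p = 0.258). Without no disease replicate 1, Mbp had -0.53 with an adjusted p of 0.0174.

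Mal, Mag and Cldn19 had overlapping levels at the 3 stages. Mal had 1217, 1922 and 1759 CPM with no disease, 1649, 1103 and 1658 CPM in the peak nerves and 1701, 1949 and 1607 CPM at recovery. Mag, which faces the axon, had 63.2, 139 and 132 CPM with no disease, 128, 72.6 and 166 CPM in the peak nerves and 139, 137 and 141 CPM at recovery. Cldn19, the tight junction claudin, had 183, 340.1 and 336 CPM with no disease, 343, 223 and 385 CPM in the peak nerves and 366, 354 and 325 CPM at recovery. No disease replicate 1 and peak replicate 2 were the low libraries of both genes. The log2 differences at peak were -0.15 ± 0.20 for Mal, 0.14 ± 0.32 for Mag and 0.15 ± 0.24 for Cldn19, with edgeR adjusted p of 0.607, 0.780 and 0.691, and the sign of each turned when 1 library was left out (Mal also on total counts only). A change of the size of these errors was not detectable with 3 libraries a group.

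The activators of the myelin genes did not pass the test in nerve. Egr2 had 72.2, 172 and 151 CPM with no disease, 82.6, 62.7 and 108 CPM in the peak nerves and 108, 161 and 114 CPM at recovery. Its log2 difference at peak was -0.64 ± 0.31 (edgeR adjusted p = 0.152, and -0.93 with 0.0172 without no disease replicate 1). Sox10 had a log2 difference of 0.03 ± 0.25 (edgeR adjusted p = 0.940), and its stages overlapped.

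At recovery against no disease none of the 8 members was called in nerve by edgeR, against 0.629% of all genes called higher and 0.393% lower. At an unadjusted p under 0.05 there was 1 member, Drp2, and DESeq2 called the same 1. The share of all genes at that unadjusted threshold was not counted. The log2 differences lay between -0.47 (Drp2) and 0.32 (Mag), with a median of 0.07, and Drp2 was the 1 member whose recovery nerves did not overlap the no disease nerves (10.1% of all genes were lower without overlap). Of the calls over all genes, 61.6% were higher, and 82.6% on total counts only. At recovery against peak, Drp2 was called higher and Pmp2 lower, against 7.36% of all genes called higher and 11.1% lower. Mbp, Pmp22, Prx and Drp2 were higher and Pmp2 lower without overlap, against 18.9% and 21.6% of all genes. The median over the members was 0.26 and that over all genes 0.00. Both comparisons with peak share the peak libraries.

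The share that each member took of the set was followed by setting its log2 level against the mean of the other 7 in the same library, a measure that cancels a common shift of all members. In the no disease nerves Drp2 stood at 2.02, 1.24 and 1.39 on this log2 scale, in the peak nerves at 0.33, 0.52 and 0.11, and in the recovery nerves at 1.00, 1.00 and 0.77. Pmp2 stood at -4.06, -4.33 and -4.26 with no disease, -2.65, -1.72 and -3.05 at peak and -4.67, -4.17 and -4.15 at recovery. So Drp2 was lower at peak than with no disease by a mean of -1.23 and at recovery by -0.63, both without overlap, and Pmp2 was higher at peak by 1.74 without overlap. At recovery against no disease Mag (0.37) and Cldn19 (0.29) were higher and Mbp (-0.19) lower, also without overlap, though none of these genes was called on its own level. At peak against no disease Prx was lower by -0.49 and Cldn19 higher by 0.35, again without overlap, while Mbp, Pmp22, Mag and Mal overlapped. At recovery against peak, Prx (0.67), Drp2 (0.60) and Pmp22 (0.49) were higher and Pmp2 (-1.86) lower without overlap. Differences on this scale were not tested, and no share over all genes was counted for it. With 3 libraries against 3, an exact permutation test cannot go below p = 0.1. Each value also holds the moves of the other 7 members, those of Drp2 and Pmp2 among them.

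**Figure D2:**
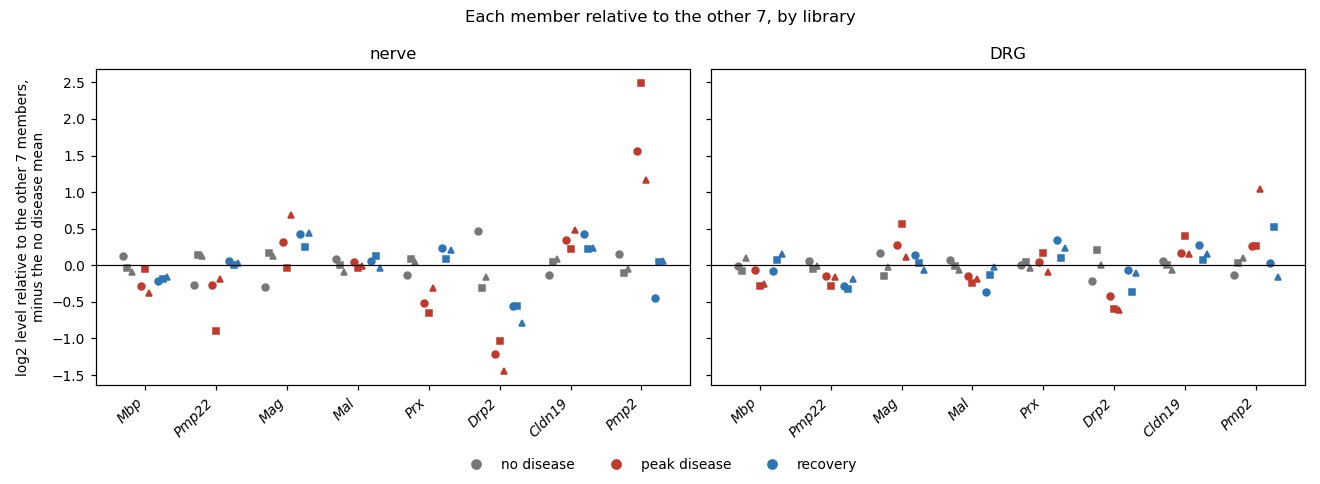
Log2 level of each member relative to the mean of the other 7 members in the same library, by tissue and stage (no disease, peak, recovery); points are libraries. In nerve Drp2 moves down by 1.23 and Pmp2 up by 1.74 at peak against no disease, and in DRG the largest mean shifts between those stages are those of Drp2 (-0.54) and Pmp2 (0.52).

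Across the 9 nerve libraries Mal (r = 0.97), Pmp22 (0.96), Prx (0.89), Mbp (0.86), Mag (0.84) and Cldn19 (0.81) followed the mean of the other 7 members, whereas Drp2 (0.29) and Pmp2 (-0.48) did not, and Drp2 and Pmp2 had r = -0.85 with each other. In the 9 DRG libraries each member had an r between 0.86 (Drp2) and 0.99 (Pmp22). These values of Pearson's r on log2 CPM describe libraries that share their stages, scaling and depth, and are no test. Among other genes, those most like the mean of the 8 members were Elovl1, an enzyme that lengthens fatty acids (r = 0.98 over 9 nerves, among 11751 genes), and Cryab, a small heat shock protein (r = 0.98), in nerve. In DRG they were Arhgap19 (r = 1.00 to 2 decimals over 9 libraries, among 11849 genes) and Slc25a10, a carrier of the mitochondrial membrane (r = 0.99). Exons of Elovl1 overlap those of Cdc20 and exons of Cryab those of Hspb2, each on the opposite strand, and these neighbours had 4.33% and 4.06% as many counts.

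In the DRG, most members rose together. At peak disease 7 of 8 were called higher than with no disease, by 1.70-fold (Mbp) to 2.71-fold (Pmp2), and Drp2 was not called. Of all genes tested 4.42% were called higher and 3.21% lower, and 16.6% were higher without overlap, whereas all 8 members were higher without overlap. The median log2 difference of the members was 0.88, against 0.01 over all genes.

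Mag had 47.5, 60.9 and 51.5 CPM in the peak DRG, against 19.1, 22.6 and 26.0 CPM in the no disease DRG, a log2 change of 1.24 ± 0.13 (edgeR adjusted p = 0.00157). Cldn19 had 105, 130.1 and 125 CPM at peak, against 42.1, 58.7 and 60.1 CPM with no disease, a log2 change of 1.16 ± 0.14 (edgeR adjusted p = 0.00216). Prx had 632, 731 and 697 CPM at peak, against 264, 388 and 393 CPM with no disease, a log2 change of 0.98 ± 0.14 (edgeR adjusted p = 0.00491). These 3 genes of the adaxonal, junctional and outer membrane were called in 15 of 15 settings. Pmp2 had 18.1, 19.4 and 34.5 CPM at peak, against 6.09, 9.67 and 10.7 CPM with no disease, a log2 change of 1.44 ± 0.31 (edgeR adjusted p = 0.0220). Its peak replicate 3 stood well above the other two.

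Among the genes of compact myelin and rafts, Pmp22, Mbp and Mal also rose. Pmp22 had 2429.9, 2410.2 and 2895 CPM at peak, against 1179.8, 1592 and 1738 CPM with no disease (log2 change 0.78 ± 0.15, edgeR adjusted p = 0.0158). Mbp had 1863, 1765 and 1993 CPM at peak, against 823, 1139 and 1352 CPM with no disease (0.76 ± 0.18, edgeR adjusted p = 0.0310). Mal had 483, 492 and 563 CPM at peak, against 236, 324 and 335 CPM with no disease (0.78 ± 0.17, edgeR adjusted p = 0.0230). The ranges of the peak and no disease DRG stood apart for all 3 genes. Drp2 had 481, 467 and 511 CPM at peak, against 233, 436 and 407 CPM with no disease, and its log2 difference of 0.44 ± 0.19 missed the threshold (edgeR adjusted p = 0.177). Relative to the other 7 members Drp2 was lower at peak by -0.54 and Pmp2 higher by 0.52, each without overlap, which are the signs they had in nerve. Cldn19 was also higher by 0.24, and Pmp22 (-0.20) and Mal (-0.19) lower, without overlap, on a scale that was not tested.

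The count of 7 rests on the small groups. It was 3 without no disease replicate 1 or peak replicate 3, 4 without no disease replicate 2, 5 without no disease replicate 3 or peak replicate 1, and 6 without peak replicate 2. The direction of every member held in each of these.

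During recovery the DRG levels were above no disease, in a comparison that uses the same no disease libraries as that at peak. All 8 members were higher than with no disease without overlap (13.7% of all genes), and 6 were called higher, against 2.44% of all genes called higher and 0.734% lower. The 6 were Mbp, Pmp22, Mag, Mal, Prx and Cldn19, with log2 changes from 0.70 ± 0.15 (Pmp22, edgeR adjusted p = 0.0385) to 1.12 ± 0.14 (Prx, edgeR adjusted p = 0.0116). Prx had 703, 777 and 792 CPM at recovery, against 264, 388 and 393 CPM with no disease. Mbp had 1718, 2417 and 2387 CPM and Mag 40.8, 49.0 and 43.1 CPM at recovery. Drp2 had 555, 593 and 650.1 CPM at recovery, with a log2 difference of 0.74 ± 0.19 (edgeR adjusted p = 0.0583), and Pmp2 had 14.6, 25.3 and 15.6 CPM, with 1.07 ± 0.31 (edgeR adjusted p = 0.0787). The authors' deposited table has all 8 members at a q under 0.05 in this comparison.

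These calls depended on single libraries. Leaving out no disease replicate 2, or either of recovery replicates 2 and 3, left no member called, 1 was called without no disease replicate 1, 4 without no disease replicate 3. All 8 were called once recovery replicate 1 was left out. In each of these fits all 8 differences stayed positive. Of all calls 76.9% were higher, and 97.9% on total counts only.

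Between recovery and peak no member was called in DRG (0.0303% of all genes were called higher and 0.109% lower), none at an unadjusted p under 0.05, and none by DESeq2 or limma-voom. The log2 differences ran from -0.37 (Pmp2) to 0.30 (Drp2), and Drp2 was the 1 member whose recovery libraries all lay above its peak libraries, against 8.51% of all genes.

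**Figure D3:**
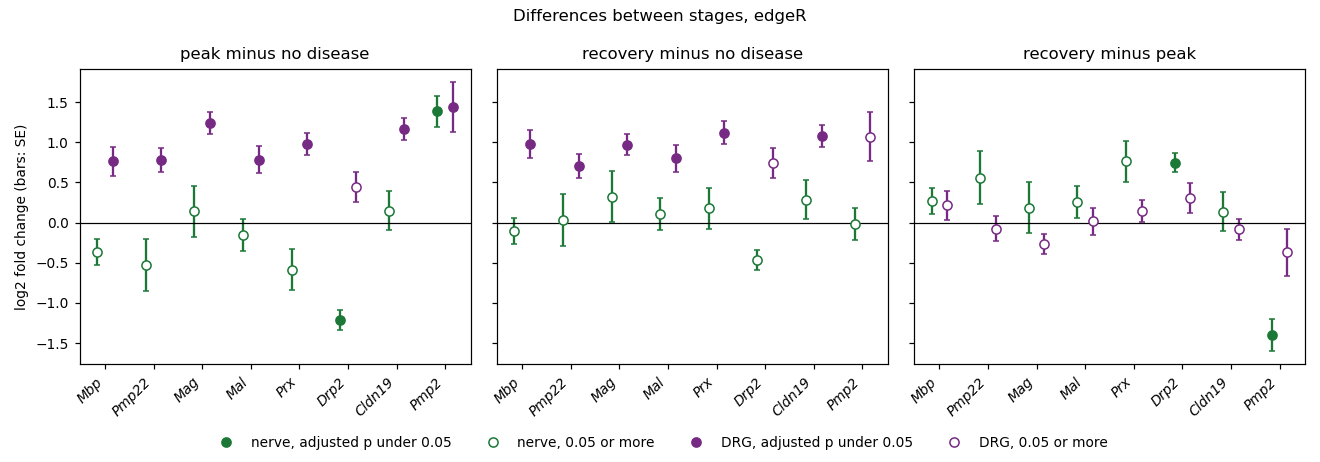
Log2 fold change of each member with its standard error in the stage comparisons, nerve in green and DRG in purple; filled points had an adjusted p under 0.05 in edgeR's quasi-likelihood test. At peak against no disease the DRG values of the members lie between 0.44 and 1.44, while the nerve values run from -1.21 (Drp2) to 1.38 (Pmp2).

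The difference between the tissues was tested in 1 fit of all 18 libraries. The log2 change at peak was lower in nerve than in DRG for 7 of 8 members, with 9.47% of all genes called lower and 6.63% higher. The difference was -1.69 ± 0.24 for Drp2 (edgeR adjusted p = 0.000384), -1.60 ± 0.31 for Prx (0.00327), -1.34 ± 0.39 for Pmp22 (0.0286), -1.17 ± 0.25 for Mbp (0.00634), -1.14 ± 0.37 for Mag (0.0476), -1.05 ± 0.30 for Cldn19 (0.0263) and -0.97 ± 0.27 for Mal (0.0263). Pmp2, which rose in both tissues, had a difference of -0.09 ± 0.39 (edgeR adjusted p = 0.900), whose standard error leaves room for a sizeable difference either way. Drp2, Prx and Mbp were called in 20 of 20 settings and Mag in 4 of 20. The count of 7 was 3 without nerve no disease replicate 2 or DRG no disease replicate 1, 4 without nerve no disease replicate 3, nerve peak replicate 2 or DRG peak replicate 3, and 3 on total counts only. Of all calls in this test 41.2% were higher, 73.2% on total counts only and 55.6% with the ribosomal RNA genes left out. For the step from peak to recovery no member was called by edgeR, against 3.46% of all genes called higher and 4.38% lower, or by DESeq2. At an unadjusted p under 0.05 there were 2 members, Pmp2 (-1.003 ± 0.38) and Prx (0.66 ± 0.31), with the share of all genes not counted. Pmp2 was called without DRG peak replicate 3, at -1.35 with an edgeR adjusted p of 0.0425. Of all calls for that step 44.1% were higher, 14.3% on total counts only and 33.8% with the ribosomal RNA genes left out.

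The summed level of the members was also set against Sox10, the factor that marks the Schwann cell and glial lineage. The sum of the members was at 15093, 25009 and 23969.8 CPM with no disease, 17022, 11250.0 and 17633 CPM in the peak nerves and 20458, 22046 and 20004 CPM at recovery, and Sox10 itself had 58.1, 89.1 and 114 CPM, 82.5, 65.6 and 118 CPM, and 109, 94.0 and 105 CPM at those stages. As a log2 ratio to Sox10 the members stood at 8.02, 8.13 and 7.72 in the no disease nerves, 7.69, 7.42 and 7.22 in the peak nerves and 7.55, 7.87 and 7.57 in the recovery nerves. Peak was lower than no disease by a mean of -0.51 without overlap, though peak replicate 1 and no disease replicate 3 stood close together. Recovery had a mean difference of -0.29 from no disease and 0.22 from peak, both with overlap. In DRG the ratio to Sox10 differed from no disease by 0.40 at peak and 0.18 at recovery, and overlapped in both. These differences depend on the genes the members are set against. Against the sum of Sox10, S100b and Erbb3, a choice made after seeing the data, the log2 ratio in DRG stood at 2.17, 2.61 and 2.64 with no disease, 3.32, 3.35 and 3.45 at peak and 3.10, 3.39 and 3.43 at recovery. It was higher than with no disease by 0.90 at peak and 0.83 at recovery, both without overlap. In the no disease DRG S100b averaged 520 CPM and Sox10 36.6 CPM, so this ratio depends far more on S100b than on Sox10. In nerve this ratio was lower at peak than with no disease by -0.56 without overlap, higher at recovery than at peak by 0.47 without overlap, and overlapped between recovery and no disease. Erbb3, which is part of that sum, was itself called higher at nerve peak, by a log2 change of 0.86 ± 0.16. Satellite glia of the DRG express Sox10 too.

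Other cells changed beside the members, and their part in the results was not tested. The sum of 8 macrophage genes was 3150.0, 4753 and 2267 CPM in the peak nerves, against 1290.4, 801 and 804 CPM in the no disease nerves (5 of 8 called higher and 1 lower), and was highest in peak replicate 2, the nerve with the lowest sum of the members. For dividing cells the sum was 294, 236 and 185 CPM in the peak nerves, against 22.6, 18.6 and 16.8 CPM in the no disease nerves, with 4 of 4 called higher. Of 5 fibroblast genes 3 were called higher and 1 lower at nerve peak, and their sum was 22736, 20960.5 and 18603 CPM at peak, against 15338, 13928 and 12694 CPM with no disease. Other sums were lower in the peak nerves. Skeletal muscle genes summed to 3.94, 34.6 and 5.16 CPM at peak, against 184, 645 and 342 CPM with no disease (5 of 6 called lower), and to 8.01, 8.10 and 12.1 CPM at recovery (5 of 6 lower than with no disease). Sensory neuron genes summed to 32.7, 25.4 and 39.1 CPM at peak, against 212, 61.0 and 43.6 CPM with no disease, with 5 of 6 called lower. Of 4 endothelial genes and of 4 blood genes, 2 each were called lower at nerve peak. Beside these counts, 15.0% of all genes tested were called higher and 12.1% lower at nerve peak. For nerve recovery against no disease, 0.393% of all genes were called lower.

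In the DRG the macrophage sum was 417, 275 and 469 CPM at peak, against 163, 151 and 161 CPM with no disease, with 6 of 8 called higher. At DRG recovery it was 179, 403 and 374 CPM, with 4 of 8 called higher than with no disease. The fibroblast sum in the DRG was 2706, 1199 and 2107 CPM at peak, against 1155, 1299 and 1347 CPM with no disease, with 3 of 5 called higher and the groups overlapping. Over all genes tested, 4.42% were called higher at DRG peak and 2.44% at DRG recovery, each against no disease.

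Mbp, Mag and Mal are also genes of oligodendrocytes, the myelin cells of the spinal cord. The 7 oligodendrocyte genes (Mog, Mobp, Opalin, Hapln2, Olig2, Klk6 and Ermn) summed to 54.6, 12.1 and 5.95 CPM in the peak DRG, against 6.20, 3.19 and 2.64 CPM in the no disease DRG, and to 2.20, 1.81 and 2.54 CPM in the recovery DRG, where Olig2 was at 0. None of the 3 that could be tested was called at DRG peak. Without peak replicate 1, the library with the highest sum, the log2 difference at DRG peak was 1.32 for Mag (edgeR adjusted p = 0.00269), 0.82 for Mal (0.0511) and 0.77 for Mbp (0.0767), against 1.24, 0.78 and 0.76 with it, and 5 of the 8 members were called in place of 7. In nerve the sum was 16.5, 14.0 and 10.9 CPM at peak, against 5.81, 6.97 and 7.67 CPM with no disease, where Opalin and Olig2 were at 0, and 1 of 3 tested was called higher (15.0% of all genes).

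**Figure D4:**
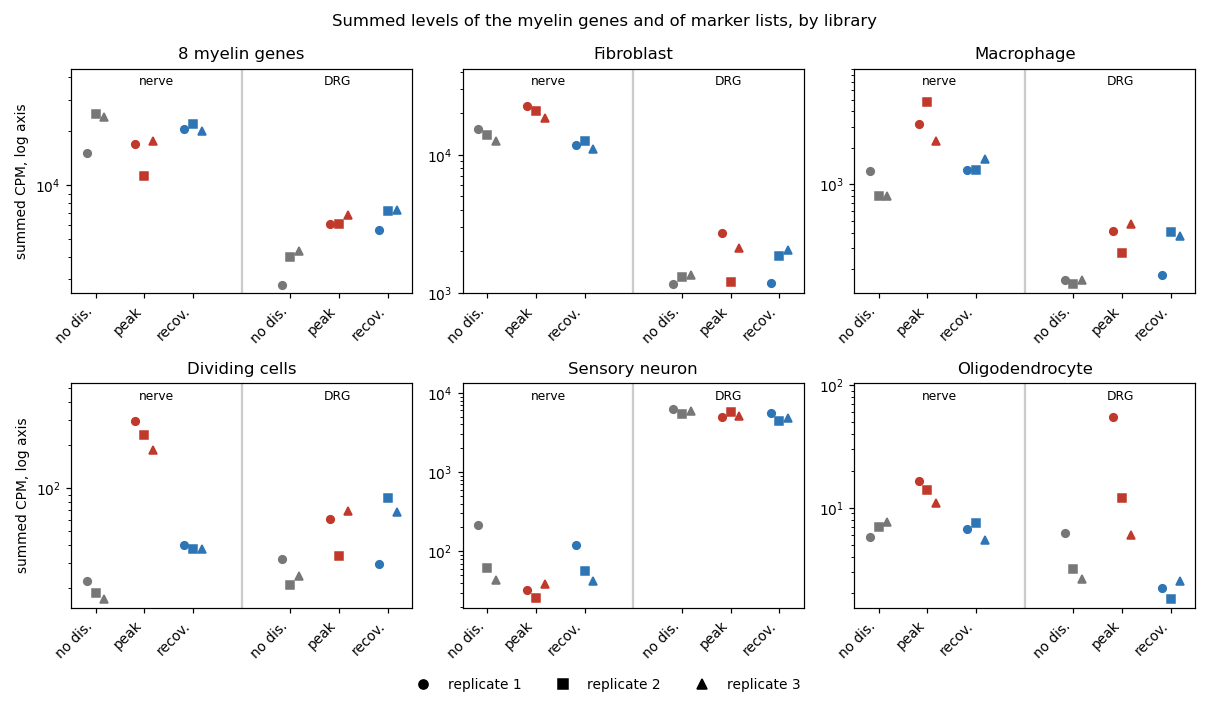
Summed CPM of the members and of marker genes for fibroblasts, macrophages, dividing cells, sensory neurons and oligodendrocytes in each library (log axis), by tissue and stage. In nerve the macrophage sums at peak (2267 to 4753 CPM) and the sums of dividing cells (185 to 294 CPM) lie above all no disease libraries.

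Other genes of myelin were examined in 5 lists. Of 18 other myelin proteins, 4 were called higher and 3 lower in nerve at peak, where 15.0% of all genes were called higher and 12.1% lower, with a median log2 difference of -0.15. Gjc3, a connexin of Schwann cells, averaged 473 ± 56.9 CPM at peak and 142 ± 10.2 CPM with no disease (SD, n = 3 each), a log2 change of 1.74 ± 0.10 (SE), and Cldn11, a claudin, changed by 1.41 ± 0.28. Ndrg1, mutated in a human demyelinating neuropathy, averaged 943 ± 233 CPM at peak and 1822 ± 223 CPM with no disease (-0.95 ± 0.17), and Plekhb1 changed by -0.74 ± 0.11. At recovery against peak, 4 of these 18 were higher and 2 lower (7.36% and 11.1% of all genes), among them Ndrg1 (0.94 ± 0.17), Bcas1 (0.71 ± 0.09) and Gjc3 (-1.18 ± 0.10). Gjc3 was the 1 of the 18 called at nerve recovery against no disease (0.56 ± 0.10, with 0.629% of all genes called higher), in 8 of 15 settings. In DRG, 8 of the 18 were called higher at peak and none lower (4.42% and 3.21% of all genes), with a median of 0.36, among them Gjc3 (1.29 ± 0.17) and Ncmap (0.86 ± 0.16), a small membrane protein of peripheral myelin. At DRG recovery against no disease 3 of 18 were higher and none lower (2.44% and 0.734% of all genes), with Cadm4, an adhesion protein of the Schwann cell internode, at 0.85 ± 0.14.

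Of 12 enzymes of myelin lipids, 1 was called higher and 2 lower in nerve at peak (15.0% and 12.1% of all genes), with a median of -0.22. The sterol enzyme Sqle changed by -0.90 ± 0.22 (edgeR adjusted p = 0.0139, and 0.0521 without no disease replicate 3). Gal3st1, which makes sulfatide, changed by 0.53 ± 0.17, a call that was lost without any 1 of the 6 libraries. In DRG, 4 of the 12 were called higher at peak (4.42% of all genes) and 5 at recovery against no disease (2.44% of all genes), and none lower. Ugt8a, which makes galactosylceramide, changed by 0.93 ± 0.17 at DRG peak and 1.00 ± 0.17 at DRG recovery, and Fa2h, which hydroxylates its fatty acids, by 0.98 ± 0.17 at peak.

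Of 16 regulators of myelination, 4 were called higher and 2 lower in nerve at peak (15.0% and 12.1% of all genes), with a median of 0.08. Pou3f1, the factor of the promyelinating stage, averaged 21.6 ± 5.96 CPM at peak and 4.63 ± 1.76 CPM with no disease, a log2 change of 2.24 ± 0.32. Erbb3, the neuregulin co-receptor, changed by 0.86 ± 0.16, Zeb2 by 0.58 ± 0.10 and Srebf2, the regulator of sterol synthesis, by -1.02 ± 0.13. In DRG, 4 of 16 were called higher at peak (4.42% of all genes), among them Pou3f1 (1.43 ± 0.31) and Zeb2 (0.39 ± 0.07). At DRG recovery against no disease 4 were called higher (2.44% of all genes), Sox10 (0.68 ± 0.15, called in 8 of 15 settings) among them. Egr2 had 0.22 at DRG peak and 0.43 at DRG recovery and was not called.

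Of 12 genes of repair Schwann cells, the state taken up after nerve injury, 10 could be tested in nerve, and 9 were called higher at peak and none lower (15.0% and 12.1% of all genes), with a median of 1.87. Btc, a growth factor, averaged 38.4 ± 2.29 CPM at peak and 3.25 ± 1.64 CPM with no disease (3.52 ± 0.25), the filament gene Gfap changed by 2.92 ± 0.46 and the neurotrophic factor Gdnf by 2.68 ± 0.46. At recovery against peak 7 were called lower, Jun (-0.80 ± 0.10) among them, where 11.1% of all genes were called lower. At recovery against no disease 3 were called higher, Btc (2.32 ± 0.25) among them, where 0.629% of all genes were called higher. In DRG, 9 could be tested and 2 were called higher at peak, where 4.42% of all genes were called higher. These were Atf3 (126 ± 42.6 CPM at peak and 9.28 ± 1.91 CPM with no disease) and Gfap (3.51 ± 0.74). Gfap had 19.0 ± 21.1 CPM in the peak DRG and 1.65 ± 0.703 CPM with no disease. Its SD at peak was thus above its mean, and it was called in 11 of 15 settings. Injured neurons also express Atf3 and satellite glia Gfap.

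Of 20 partners and relatives of the members, 19 could be tested in nerve, with 4 called higher and 7 lower at peak (15.0% and 12.1% of all genes). At nerve recovery against peak 5 were higher and 5 lower (7.36% and 11.1%). Fabp5, a fatty acid-binding protein related to Pmp2, averaged 156 ± 47.6 CPM at peak and 40.6 ± 3.98 CPM with no disease (1.95 ± 0.20), and was lower at recovery than at peak (-1.38 ± 0.19), the signs of Pmp2. Fabp7, another relative, changed by -2.59 ± 0.77 from low counts, and by -1.53 with an adjusted p of 0.142 without no disease replicate 1. The tight junction scaffold Mpdz changed by -0.86 ± 0.16 at peak against no disease and by 0.82 ± 0.16 at recovery against peak, and Tjp1 by 0.70 ± 0.12 at recovery against peak. In DRG 2 were called higher and 2 lower at peak (4.42% and 3.21% of all genes). Dag1, which encodes the dystroglycan that Drp2 and Prx are tied to, averaged 200 ± 22.3 CPM at DRG peak and 122 ± 10.5 CPM with no disease (0.71 ± 0.10) and was also higher at recovery (0.62 ± 0.10), and Fabp7, which satellite glia express, changed by -0.76 ± 0.16 at peak. List counts here are edgeR calls at a Benjamini-Hochberg adjusted p under 0.05 over all genes. Those at DRG recovery against no disease come from a comparison whose calls over all genes ran from 2 to 3622 with 1 library left out.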

How the data were processed

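Bulk RNA-seq of 18 libraries was analysed from the authors' deposited read counts per Ensembl gene. A normalised signal, deposited as another sheet, differs from the counts by a constant factor in each library and was not used for tests, and the authors' deposited table gives log2 ratios, p-values and q-values of their own comparisons. Libraries were made from total RNA with a SMARTER mRNA-Seq kit, per the labels' protocols. Per the submitters' processing notes, the tools were STAR 2.6.1a, Bowtie2 and kallisto 0.44.0 and the builds mm10 and GRCm38. What each tool did, how reads were counted and whether by strand is not stated there, so reads of genes on opposite strands that overlap cannot be told apart.

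From the counts, genes passing filterByExpr were scaled with TMM and tested with edgeR 4.0.16 (R 4.3.3) by the quasi-likelihood F test, in 1 fit of 9 libraries per tissue, and in 1 fit of 18 for contrasts between tissues, with Benjamini-Hochberg adjustment over all genes tested. Standard errors are the log2 fold change over the square root of F. CPM for single libraries use TMM within the tissue, and values per kb and between tissues TMM over all 18. For correlations CPM were put on a log2 scale with a prior count of 2, and for relative levels on a log2 scale without a prior count. Totals ran between 13686465 and 23435562 counts. Alternatives were DESeq2 1.42.0, limma-voom (limma 3.58.1), RLE size factors, total counts only, no filter, ribosomal RNA genes left out, a replicate block, all 18 libraries in 1 fit and each library left out. With 3 against 3 libraries an exact permutation test cannot go below p = 0.1, so none was used for single genes.

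The members and the lists were chosen with earlier results of these data known. Named from each list were up to 4 called genes of largest log2 change with a mean of at least 1 CPM, of which some are described, leaving out genes whose exons overlap another gene with more than a trace of its counts. The 3 genes most like the members' mean profile, over genes of at least 5 CPM, were named for each tissue; 1 gene named by this rule, and the ratio of the members to a set of lineage genes, are not reported here; ratios to Sox10 and to the sum of Sox10, S100b and Erbb3 are given in its place, the second chosen after seeing the data.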

Additional observations from a re-analysis of the deposited data

Results flagged for a closer look

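The change at peak disease against no disease differed between the tissues for 7 of the 8 members, by the interaction test of edgeR's quasi-likelihood fit over 18 libraries with Benjamini-Hochberg adjustment. The log2 change in nerve minus that in DRG was -1.17 for Mbp, -1.34 for Pmp22, -1.14 for Mag, -0.97 for Mal, -1.60 for Prx, -1.69 for Drp2 and -1.05 for Cldn19. In DRG these 7 genes had log2 differences between 0.44 and 1.24, in nerve between -1.21 and 0.15. The result for Drp2 joins a called fall in nerve to a difference in DRG that was not called. For Mag the interaction was called in 4 of 20 settings, for Mbp, Prx and Drp2 in 20 of 20. Groups of 3 libraries are too small for a search for outlying libraries.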

How the results depend on the processing

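Over the single genes named, 955 values under the other settings kept their direction and side of the threshold, 19 lost and 13 gained a call and 15 turned in sign, and with 1 library left out the counts were 738, 112, 9 and 35. On total counts only, the median of all genes moved by 0.15 at nerve peak, 0.18 at nerve recovery and 0.14 at DRG recovery against no disease, 0.14 at DRG recovery against peak, and 0.19 and -0.14 in the interactions at peak and from peak to recovery. Members called lower at nerve peak numbered 2 with all 18 libraries in 1 fit (Prx added), and lower at nerve recovery against no disease 1 in DESeq2 (Drp2). Members higher at nerve recovery against peak numbered 2 in DESeq2, on total counts only, with no filter and with all 18 libraries. Members lower in the peak interaction numbered 3 on total counts only. With 1 library left out, members called ranged from 1 to 3 lower at nerve peak, 1 to 2 higher at nerve recovery against peak, 3 to 6 higher at DRG peak, 0 to 8 higher at DRG recovery against no disease, 3 to 7 lower in the peak interaction and 0 to 1 lower in the other.

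Genes called at nerve recovery against no disease numbered 164, and 538 in DESeq2, 90 in limma-voom, 258 on total counts only, 316 with no filter, 315 with all 18 libraries and 15 to 144 with 1 library left out. At nerve recovery against peak there were 2966, 1874 on total counts only and 1248 to 3766 with 1 library left out. At DRG peak there were 1257, 1887 in DESeq2 and 314 to 738 with 1 left out. At DRG recovery against no disease there were 523, 1503 in DESeq2, 1204 on total counts only, 807 with no filter and 2 to 3622 with 1 left out (3622 without recovery replicate 1). At DRG recovery against peak there were 23, 285 in DESeq2, 12 in limma-voom, 95 on total counts only, 138 with no filter and 0 to 1754 with 1 left out (1754 without recovery replicate 1). In the peak interaction 1849 to 3096 genes were called with 1 left out (2783 with none), and in that from peak to recovery 1356, 2037 in DESeq2 and 496 to 2498. The log2 ratio of the members to Sox10 differed by -0.51 at nerve peak against no disease, 0.22 at nerve recovery against peak, 0.18 at DRG recovery against no disease and -0.22 at DRG recovery against peak. Against the sum of Sox10, S100b and Erbb3, chosen after seeing the data, it differed by -0.090 at nerve recovery against no disease, 0.90 at DRG peak against no disease and -0.067 at DRG recovery against peak.

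Uncalled values that turned in sign were, on total counts only, Mal at nerve peak (0.023), Mbp (0.10), Pmp2 (0.18) and Egr2 (0.18) at nerve recovery against no disease, Pmp22 (0.075) and Cldn19 (0.063) at DRG recovery against peak, and Pmp2 in the peak interaction (0.12, and 0.0014 with no filter) and Mbp in the other (-0.069). Sox10 at nerve peak was -0.023 with all 18 libraries, Egr2 at nerve recovery against no disease 0.037 in limma-voom, and Mal at DRG recovery against peak -0.0057 in limma-voom. With 1 library left out, values ran at nerve peak from -0.15 to 0.40 (Mag), -0.32 to 0.015 (Mal), -0.091 to 0.34 (Cldn19) and -0.23 to 0.28 (Sox10). At nerve recovery against no disease they ran from -0.24 to 0.20 (Pmp22), -0.069 to 0.22 (Mal), -0.062 to 0.33 (Prx), -0.17 to 0.13 (Pmp2) and -0.34 to 0.18 (Egr2), and against peak from -0.079 to 0.47 (Mag) and -0.062 to 0.30 (Cldn19). At DRG recovery against peak they ran from -0.14 to 0.020 (Pmp22) and -0.079 to 0.17 (Mal), in the peak interaction from -0.27 to 0.24 (Pmp2), and in the other from -0.057 to 0.16 (Mbp) and -0.25 to 0.25 (Sox10). The cause of these shifts was not tested.

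Deviations of libraries with the same replicate number correlated at -0.041 to 0.14 within nerve and -0.33 to 0.28 within DRG. Between the tissues they correlated at -0.064 to 0.15. In these scopes 3, 2 and 2 of 9 pairs were over 0.1. Libraries of different numbers were not compared, so these values cannot tell whether nerve and DRG libraries came from the same animals. With the replicate block, 4 genes were called at DRG recovery against peak, and Egr2 at nerve recovery against no disease (0.0095), Mal at DRG recovery against peak (-0.0073) and Sox10 in the interaction from peak to recovery (0.020) turned in sign.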
